A study of Mus musculus with 4 samples.

Results

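The genes described here are 37 interferon-stimulated genes, measured in single-nucleus RNA of 4 mouse brain libraries and picked by symbol from the 32285 genes of the count tables. They were listed because earlier work on the same files had found them low in 1 library, PE-low replicate 1, and high in the other 3. The contrast of that library with the others is therefore given as a description with no test, and it supports nothing by itself. All 37 symbols were found once in the tables. By role, 13 are antiviral effectors, 14 are interferon-inducible GTPases, 4 are transcription factors of the pathway, 4 are nucleic acid sensors and other effectors, and 2 are chemokines.

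All 4 libraries came from female 5XFAD mice of 7 to 10 weeks. 5XFAD is a transgenic model of Alzheimer's disease in which a neuron-directed Thy1 promoter drives mutant human transgenes, APP among them. Both groups received 100 µL by vein with 6550000000 extracellular vesicles (EVs) per mouse. In both, the vesicles were lipid-only particles rebuilt from EVs of chow-fed mouse adipose tissue and coupled to transferrin. The PE-high group received vesicles supplemented with further phosphatidylethanolamine (PE), an abundant membrane phospholipid, and the PE-low group received vesicles without this further supplement. By the paper's methods, the lipid mix of the unsupplemented vesicles already held some added PE, so the groups differ in the amount of added PE. Each group has 2 libraries, and each library holds the pooled nuclei of 2 mice, so no value belongs to a single animal. The comparison of PE-high with PE-low asks how brain cells differ with the PE carried by the vesicles. The interval between injection and brain collection for these libraries is not given in the sources used here, and mice given saline were not analysed here.

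Interferons are secreted antiviral signals. Type I interferons bind the Ifnar1 and Ifnar2 receptor, whose kinases Jak1 and Tyk2 activate transcription factors such as Stat2. Stat2 joins Irf9, and their complex binds the interferon-stimulated response element (ISRE) of target genes. Interferon gamma signals through Ifngr1, Ifngr2, Jak1 and Jak2 to genes with a gamma-activated site (GAS). In the brain, endothelial cells of the vessel wall and microglia, the resident macrophages, are known for strong responses to both kinds of interferon.

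The promoters of 7 members are printed because they show the response elements through which such genes are known to be switched on. Each is the 250 bases before the start of transcription, read 5′ to 3′ on the strand of the gene, from RefSeq on GRCm38.p6. Capitals mark matches to the ISRE core (GAAA, NN, GAAA in 1 run, where N is any base) or to the GAS letters TTCNNNGAA, on either strand.
Cxcl10: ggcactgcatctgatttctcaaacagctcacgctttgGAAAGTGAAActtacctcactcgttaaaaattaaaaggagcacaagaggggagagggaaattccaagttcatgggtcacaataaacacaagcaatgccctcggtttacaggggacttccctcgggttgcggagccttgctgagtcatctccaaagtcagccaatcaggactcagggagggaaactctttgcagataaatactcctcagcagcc
Ifit1: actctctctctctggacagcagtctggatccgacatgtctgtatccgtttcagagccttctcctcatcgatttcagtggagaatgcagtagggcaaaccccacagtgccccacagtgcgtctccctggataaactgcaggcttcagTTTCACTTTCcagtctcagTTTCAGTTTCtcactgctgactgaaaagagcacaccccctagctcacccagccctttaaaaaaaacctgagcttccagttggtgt
Isg15: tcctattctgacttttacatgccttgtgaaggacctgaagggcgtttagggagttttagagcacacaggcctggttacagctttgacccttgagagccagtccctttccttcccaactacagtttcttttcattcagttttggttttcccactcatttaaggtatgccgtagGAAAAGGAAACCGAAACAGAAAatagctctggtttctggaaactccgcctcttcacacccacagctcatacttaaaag
Rsad2: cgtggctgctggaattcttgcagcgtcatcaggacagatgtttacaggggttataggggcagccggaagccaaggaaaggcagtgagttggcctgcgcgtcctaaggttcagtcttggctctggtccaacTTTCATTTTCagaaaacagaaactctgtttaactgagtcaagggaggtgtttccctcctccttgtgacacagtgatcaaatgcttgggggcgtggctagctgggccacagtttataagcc
Gbp5: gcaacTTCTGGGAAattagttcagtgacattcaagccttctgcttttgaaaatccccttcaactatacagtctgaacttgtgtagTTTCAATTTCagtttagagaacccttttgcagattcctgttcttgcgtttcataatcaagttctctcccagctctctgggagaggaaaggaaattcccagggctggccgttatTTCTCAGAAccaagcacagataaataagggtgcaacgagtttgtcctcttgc
Igtp: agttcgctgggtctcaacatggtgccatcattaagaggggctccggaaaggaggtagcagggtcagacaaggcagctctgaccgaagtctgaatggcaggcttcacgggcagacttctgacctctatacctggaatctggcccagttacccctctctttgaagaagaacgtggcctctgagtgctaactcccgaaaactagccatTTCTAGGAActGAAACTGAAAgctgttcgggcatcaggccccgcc
Irf1: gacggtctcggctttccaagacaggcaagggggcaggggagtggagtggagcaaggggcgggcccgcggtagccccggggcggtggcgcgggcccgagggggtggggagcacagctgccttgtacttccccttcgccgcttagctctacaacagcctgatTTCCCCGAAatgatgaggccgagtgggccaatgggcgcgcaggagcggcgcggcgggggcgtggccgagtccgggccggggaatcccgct

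The Cxcl10 promoter lies at chr5:92348890-92349139 on the minus strand and has 1 ISRE match, whose first base is 213 bases before the start. The Ifit1 promoter, at chr19:34640639-34640888 on the plus strand, has 2 ISRE matches, at 104 and 85 bases before the start, both read from the opposite strand. In the Isg15 promoter, at chr4:156200819-156201068 on the minus strand, 3 ISRE matches overlap in 1 run of capitals, beginning at 78, 72 and 66 bases. The Rsad2 promoter, at chr12:26456453-26456702 on the minus strand, has 1 ISRE match at 120 bases. Both elements occur in the promoters of Gbp5, at chr3:142496684-142496933, and Igtp, at chr11:58199306-58199555, both on the plus strand. The GAS match of Igtp begins 45 bases before the start and its ISRE match 34 bases before it, next to each other. Irf1, at chr11:53769764-53770013 on the plus strand, has no ISRE match and 1 GAS match at 90 bases.

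Of the 37 members, 28 had an entry in the promoter table, whose windows run from 250 bases before to 50 bases after the start. A gene counts here if any of its promoters has a match. An ISRE match was found in 19 of the 28 genes (67.9%), or 19 of their 32 promoters, against 3.44% of all 32851 promoters. A GAS match was found in 10 of the 28 genes (35.7%), or 10 of their 32 promoters, against 8.30% of all promoters. Both were found in 8 members and neither in 7. A match is a stretch of letters, and binding was not measured.

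Several members lie next to each other in the genome (mm10, the build of the count tables). The 4 Ifit genes span 99.3 kb of chromosome 19, and 8 members lie on chromosome 11, among them Irf1 and the GTPases Igtp, Irgm1, Irgm2, Ifi47, Tgtp1 and Tgtp2. Some share sequence, which makes their separate counts uncertain. Of all 60-base stretches of their transcripts, Tgtp1 shared 79.6% and Tgtp2 84.4% with other genes, mainly each other, Gbp6 shared 69.3% with Gm43302 and Gbp10, Oas1a 52.9% with Oas1g and Oas1b, and Ifit3 47.0% with Ifit3b. The annotations of Gbp4 and Gbp9, of Irgm2 and Igtp, of Ifi47 and Olfr56, and of Irf9 and Rnf31 overlap on the same strand.

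The libraries held 29472021 to 43272337 UMIs (unique molecular identifiers, each counting 1 captured RNA molecule), and 8723 to 13967 barcodes per library were called as nuclei. Between 27 and 54 called barcodes were shared by each pair of libraries, against 14.0 to 24.7 expected if the libraries were independent. Every pair lay above its expected number, and the source of this excess was not tested. Nuclei were clustered without the listed interferon genes, and clusters were named from marker genes. In the endothelial-like, microglia-like, fibroblast-like and astrocyte-like classes every marker of the class (11, 11, 10 and 7 genes) had its highest level there, and in the neuron-like class 9 of 13 did. Only these 5 classes were compared. The clusters were named from these same markers, so this was largely fixed in advance. Endothelial-like nuclei numbered 311 in PE-low replicate 1, 187 in PE-low replicate 2, 154 in PE-high replicate 1 and 159 in PE-high replicate 2. Levels are given as UMIs per 1000000 UMIs of the same class and library (CPM), and intervals are 95% Poisson intervals that cover counting error only.

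In endothelial-like nuclei the 37 genes together were 17.9-fold lower in PE-low replicate 1 than the mean of the other 3 libraries. Their summed level was 1948 CPM (interval 1814 to 2090) in PE-low replicate 1. It was 40643 CPM in PE-low replicate 2, 31518 CPM in PE-high replicate 1 and 32561 CPM in PE-high replicate 2, a mean of 34907 ± 4995 CPM (SD, n = 3). Thus the library that stood apart was 1 of the 2 PE-low libraries, and its PE-low partner was the highest of the 4. PE-low replicate 1 was lowest for 36 of the 36 members with at least 20 UMIs and at least 2-fold below the lowest of the other 3 for 35 of them. The same held for 4.53% of all 7823 genes with at least 20 UMIs. Since the members were chosen on this contrast, nothing is read from the difference between these shares, here or in the classes and barcode sets below. The minimum of 20 UMIs counts all 4 libraries together. A member low in PE-low replicate 1 can thus pass it through the other 3 alone. The exception among the 36 members was Irf9, 1.98-fold below the lowest of the others, and just inside the limit was Ly6a at 2.03-fold. The 1 member under the minimum, Ifi27l2a, had 7 UMIs in all.

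**Figure D1:**
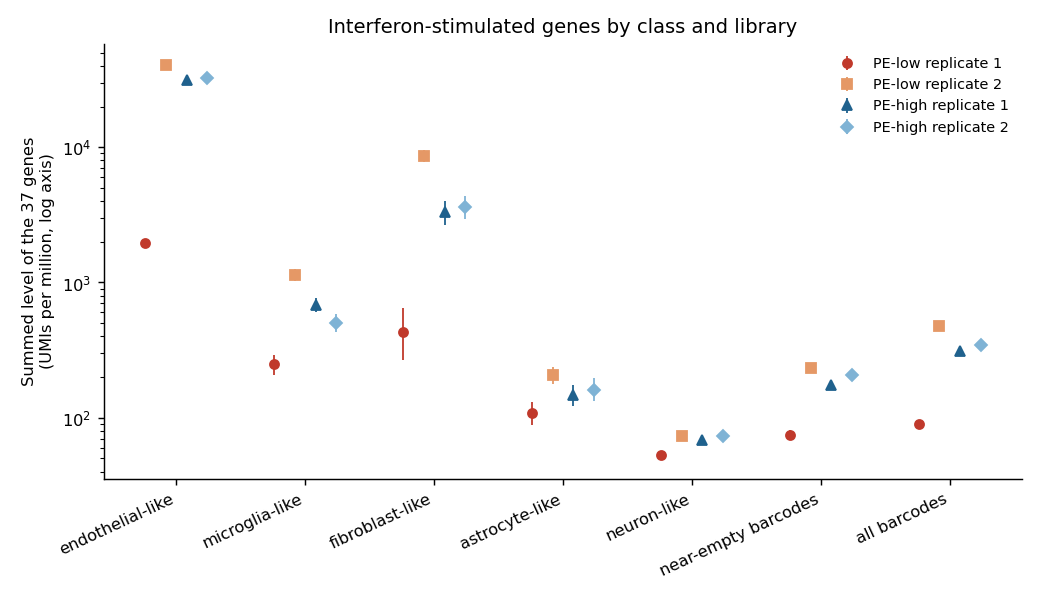
Summed level of the 37 genes (CPM, log axis) in each class, in near-empty barcodes and in all barcodes; each mark is 1 library and the bars are 95% Poisson intervals. PE-low replicate 1 was lowest in every class, by 17.9-fold against the mean of the other 3 libraries in endothelial-like nuclei and by 1.35-fold in neuron-like nuclei.

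The endothelial-like nuclei also held markers of other cells. Pericyte or smooth muscle markers summed to 2315 to 3104 CPM, neuron markers to 2220 to 3236 CPM, astrocyte markers to 1490 to 1875 CPM and oligodendrocyte markers to 1079 to 2271 CPM, and PE-low replicate 1 lay within the range of the others for these lists except the astrocyte markers, where it was lowest. In clusters 27 and 29, 184 of the 811 nuclei, nearly all pericyte markers led as well, and without these clusters the members were 20.2-fold lower in PE-low replicate 1 (1758 CPM against 31940, 32239 and 42454 CPM). Microglial markers summed to 188 to 257 CPM, with 1 of 11 at 0 in every library, and T cell markers to 0 to 26.3 CPM, with 3 of 5 at 0. Blood markers were at 1106 CPM in PE-low replicate 1, 637 CPM in PE-low replicate 2, 1612 CPM in PE-high replicate 1 and 645 CPM in PE-high replicate 2, so PE-low replicate 1 lay within the range of the others. Endothelial markers themselves were at 9970 CPM in PE-low replicate 1 and at 6871 to 8068 CPM in the other 3, so PE-low replicate 1 was highest for these markers and lowest for the members. The median nucleus had 969 UMIs in PE-low replicate 1 and 737 to 1186 in the others, and a mitochondrial share of 7.88% against 7.08 to 9.10%. The part of these features in the difference was not tested.

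The chemokines differed most. Cxcl10, which attracts activated T cells through the receptor Cxcr3, gave 1 UMI in the endothelial-like nuclei of PE-low replicate 1 (2.49 CPM), 1978 UMIs in PE-low replicate 2 (7732 CPM), 871 in PE-high replicate 1 (5873 CPM) and 751 in PE-high replicate 2 (4940 CPM). It had the most UMIs of any member in this class. The ratio of the pooled other 3 libraries to PE-low replicate 1 was 2598, with a counting interval of 466 to 102659. Cxcl9, a ligand of the same receptor, gave 0, 132, 39 and 59 UMIs in the same order. Against the limit of 3 UMIs that a count of 0 allows in PE-low replicate 1, the mean level of the others was at least 52.1-fold higher.

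The 13 antiviral effectors summed to 1333 CPM in PE-low replicate 1, 16751 CPM in PE-low replicate 2, 13149 CPM in PE-high replicate 1 and 13603 CPM in PE-high replicate 2. Rsad2, which encodes viperin, an enzyme that makes a chain-terminating nucleotide, was at 27.4, 4363, 2751 and 2986 CPM in these libraries, 123-fold lower in PE-low replicate 1 than the mean of the others. Ifit1, whose protein binds viral RNA and blocks its translation, was at 34.9, 3327, 2981 and 2796 CPM (87.0-fold). Its relatives Ifit2 and Ifit3 were 168-fold and 23.7-fold lower. Ifit3b gave 2 UMIs in PE-low replicate 1 and 95, 38 and 31 in the others, a pooled ratio of 59.2 with a counting interval of 16.1 to 493. In each of these genes the 3 high libraries lay close together and none overlapped PE-low replicate 1.

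Isg15, a ubiquitin-like protein that is attached to other proteins, was at 112, 1779, 1551 and 1473 CPM, a smaller difference of 14.3-fold. Usp18, the protease that removes Isg15, was at 49.8 CPM against 520 to 526 CPM, the narrowest range among the 3 high libraries of any antiviral member. Oasl2, of the family of oligoadenylate synthetases that respond to double-stranded RNA, was 9.40-fold lower, and Ifi44 was 30.2-fold lower. Oas1a, of the same family as Oasl2, gave 3 UMIs in PE-low replicate 1, a pooled ratio of 11.1 (counting interval 3.56 to 55.6).

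Bst2 and Ly6a had higher levels in PE-low replicate 1 than most members. Bst2, or tetherin, which holds budding viruses at the cell surface, was at 67.3 CPM against 189 to 332 CPM (3.82-fold). Ly6a, a surface protein that brain endothelial cells of many mouse strains carry at rest, was at 909, 2041, 1881 and 1848 CPM. It differed by 2.12-fold and alone made up 365 of the 782 member UMIs of PE-low replicate 1. Ifi27l2a was near the detection limit, with 3, 0, 3 and 1 UMIs.

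The 14 GTPases, which attack the membranes around engulfed pathogens, summed to 341 CPM in PE-low replicate 1 and to 11774, 9488 and 10564 CPM in the other 3, a 31.1-fold difference. Gbp5, a guanylate-binding protein, was at 14.9, 3225, 2765 and 3342 CPM (208-fold). Iigp1, of the immunity-related GTPases, was at 32.4, 3456, 2556 and 2782 CPM (90.5-fold). These are the GTPases with the highest levels in the 3 high libraries. Gbp2, Gbp3, Gbp4, Gbp7 and Gbp9 ranged from 6.49-fold for Gbp7 to 39.3-fold for Gbp4, and Irgm1, Irgm2 and Igtp from 8.10-fold for Irgm2 to 27.6-fold for Irgm1. Gbp6 and Ifi47 gave 3 UMIs each in PE-low replicate 1, with pooled ratios of 24.3 (counting interval 8.08 to 120) and 25.3 (8.41 to 125). Tgtp2 gave 1, 62, 34 and 37 UMIs, a pooled ratio of 96.0 (16.9 to 3820). Its near copy Tgtp1 gave 0, 20, 9 and 7 UMIs and was at least 8.25-fold higher in the others against the limit of 3 UMIs.

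The 4 transcription factors differed less. Irf1, an early regulator of both interferon responses whose promoter is printed above, was at 32.4, 418, 391 and 408 CPM (12.5-fold). Irf7, the main driver of interferon alpha genes, was at 19.9, 199, 128 and 92.1 CPM (7.02-fold). Stat2 and Irf9, which act together at the ISRE, were at 47.3 against 128 to 217 CPM and at 39.9 against 78.9 to 145 CPM. Irf9 rested on 12 to 37 UMIs per library.

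Among sensors and other effectors, Ifih1 (MDA5, a sensor of double-stranded RNA) was at 39.9, 704, 472 and 579 CPM (14.7-fold). Parp14, an enzyme that adds ADP-ribose, was at 37.4 CPM against 931 to 1392 CPM (30.2-fold), and Rnf213, a giant ubiquitin ligase with a known role in vessels, at 49.8 CPM against 593 to 735 CPM (13.0-fold). Zbp1, a sensor of left-handed nucleic acids, had 2, 18, 3 and 2 UMIs, a pooled ratio of 8.30 (counting interval 2.05 to 72.6), and the PE-high libraries were also low in this gene.

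**Figure D2:**
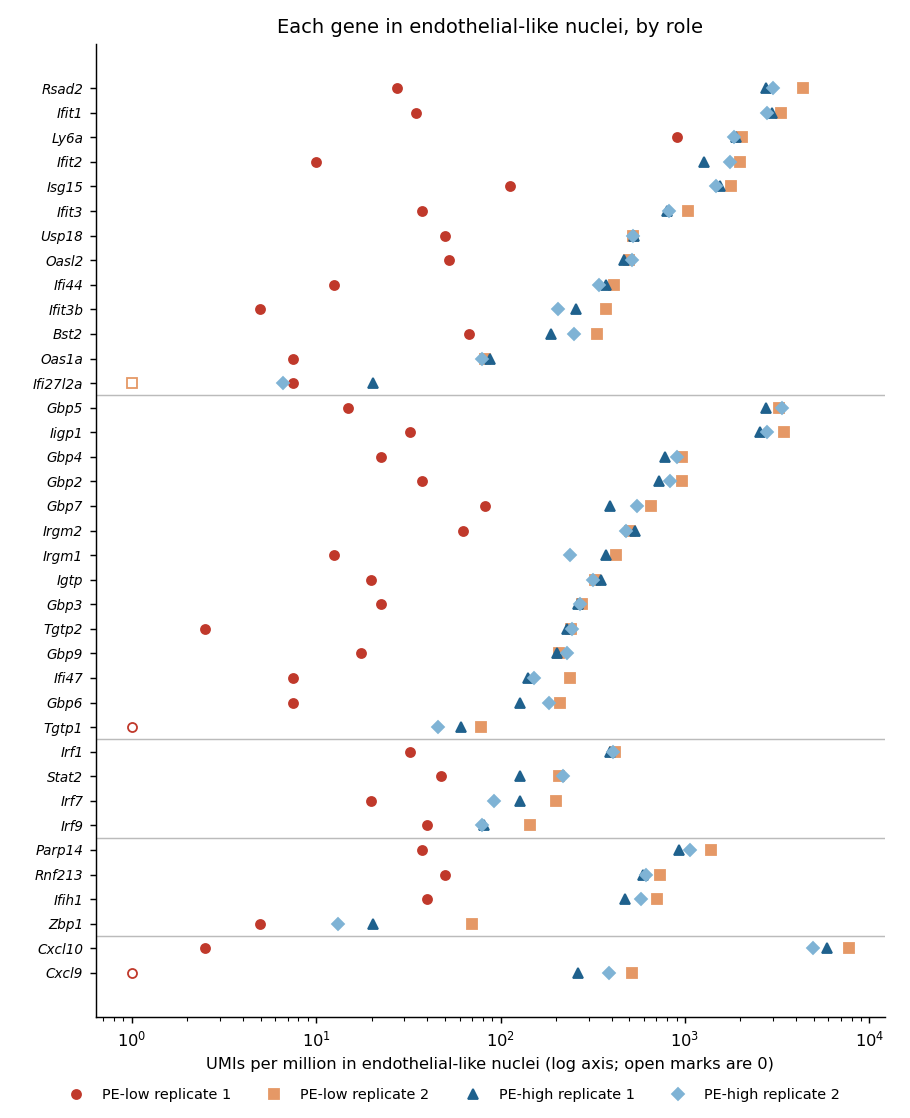
Level of each of the 37 genes in endothelial-like nuclei (CPM, log axis) in each library, grouped by role from antiviral effectors at the top to chemokines at the bottom; open marks on the left stand for 0. Except for Ifi27l2a, the mark of PE-low replicate 1 lies to the left of the other 3, farthest for Cxcl10 (1 UMI against 751 to 1978) and least, against the mean of the others, for Ly6a (2.12-fold).

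The difference was spread over single nuclei. Each nucleus was thinned to 500 UMIs to make depths equal, and 0 nuclei of both PE-low libraries, 19 of PE-high replicate 1 and 22 of PE-high replicate 2 were too shallow. The mean number of member UMIs per endothelial-like nucleus was 1.03 in PE-low replicate 1, 21.0 in PE-low replicate 2, 17.1 in PE-high replicate 1 and 18.0 in PE-high replicate 2. At least 3 members were detected in 25 of 311 nuclei of PE-low replicate 1 (8.04%, Wilson interval 5.50 to 11.6%). In the other 3 libraries 97.8 to 99.5% of nuclei had at least 3, so nearly every endothelial-like nucleus there had UMIs of several members. Without thinning these shares were 24.4% in PE-low replicate 1 and 98.1 to 100% in the others. The highest nucleus of PE-low replicate 1 had 6 member UMIs of 500, below the median of 16 to 20 in the other libraries.

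By gene, thinned Cxcl10 was found in 0 of 311 nuclei of PE-low replicate 1, which allows a share of up to 0.965% with a UMI at this depth (1 UMI was seen there without thinning). It was found in 155 of 187 nuclei of PE-low replicate 2 (82.9%), 115 of 135 of PE-high replicate 1 (85.2%) and 108 of 137 of PE-high replicate 2 (78.8%). Rsad2, Gbp5 and Ifit1 were found in 0.643 to 2.25% of nuclei of PE-low replicate 1 and in 63.0 to 76.6% of nuclei of the others. Ly6a was found in 33.8% and in 56.9 to 61.5%. Free RNA in the droplets can give UMIs to cells that do not make a transcript, and neuron-like nuclei serve as the background. Thinned Cxcl10 was found in 0 of 6504 neuron-like nuclei of PE-low replicate 1 and in 0.213 to 0.460% of those of the others, whose median depth before thinning was 1553 to 2918.5 UMIs.

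**Figure D3:**
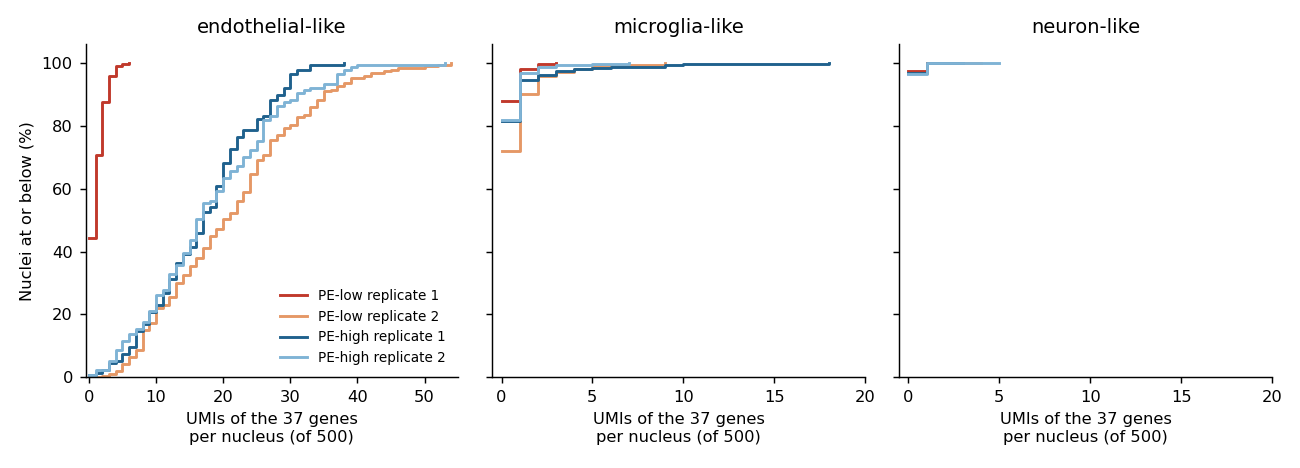
Share of nuclei (%) with at most a given number of UMIs of the 37 genes, after thinning each nucleus to 500 UMIs, in endothelial-like, microglia-like and neuron-like nuclei; each line is 1 library. In endothelial-like nuclei the line of PE-low replicate 1 reaches 100% at 6 UMIs, while the others have medians of 16 to 20 UMIs, and in neuron-like nuclei the 4 lines lie together.

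The endothelial-like nuclei fell into 5 clusters, with only the listed interferon genes kept out of the clustering. Other genes low in PE-low replicate 1 were not removed. Among them AW112010 gave 39, 656, 314 and 272 UMIs and was a leading gene of clusters 25, 26 and 27. The split by library is therefore not independent of the contrast. Clusters 13 and 29 held 305 of the 311 nuclei of PE-low replicate 1 and 14 of the 500 nuclei of the other 3. The few nuclei that crossed this split were above PE-low replicate 1 if they came from another library, and most of those lay below the mean of their own library, with means of 6.67 to 17.7 member UMIs in the 2 or 3 nuclei per library and cluster of the others that reached 500 UMIs, against 1 to 1.6 in the nuclei of PE-low replicate 1 that lay in clusters 25 (5 nuclei) and 27 (1 nucleus). Across the 3 clusters with most nuclei of the other libraries, cluster 26 had the highest means, 24.4 to 28.0, and clusters 25 and 27 had means of 14.8 to 16.8. Library and cluster cannot be told apart for most of these nuclei.

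Fibroblast-like nuclei, cells of the meninges and vessel sheaths, differed almost as much, from few nuclei (43, 25, 28 and 33). The summed level was 427 CPM in PE-low replicate 1 (interval 268 to 647), 8632 CPM in PE-low replicate 2, 3293 CPM in PE-high replicate 1 and 3624 CPM in PE-high replicate 2. Of the 10 members with at least 20 UMIs, 9 were at least 2-fold below the others, as were 5.31% of all 1657 such genes. The other 27 members fell under this minimum, and again nothing is read from these shares. Ifit1 gave 1, 31, 9 and 15 UMIs, Gbp5 0, 27, 9 and 8, and Cxcl10 0, 41, 5 and 12. In this class PE-low replicate 2 was 2.50-fold above the mean of the PE-high libraries, and blood markers were at 2350 and 3380 CPM in the PE-low libraries against 103 and 652 CPM in the PE-high libraries. Their part was not tested.

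In microglia-like nuclei the members were low in all libraries, and PE-low replicate 1 was lowest. The summed level was 248 CPM (interval 207 to 293) in PE-low replicate 1, 1139 CPM in PE-low replicate 2, 680 CPM in PE-high replicate 1 and 501 CPM in PE-high replicate 2. Of 17 members with at least 20 UMIs, 8 were at least 2-fold below the others (1.26% of all 10296 genes). Those 8 were Ifit1, Ifit2, Rsad2, Oasl2, Usp18, Gbp5, Parp14 and Cxcl10. Cxcl10 gave 0, 70, 28 and 13 UMIs, and Parp14 12, 25, 34 and 28. By contrast Irgm2 gave 27.7, 43.8, 30.6 and 15.3 CPM and Irf1 16.6, 32.9, 11.8 and 18.3 CPM, so for these PE-low replicate 1 lay within the range of the others. Thinned microglia-like nuclei with at least 1 member UMI made up 12.1% of nuclei in PE-low replicate 1, 28.1% in PE-low replicate 2 and 18.3% in each PE-high library (20.8%, 37.1%, 23.4% and 24.6% without thinning), and thinning left out 183 and 152 nuclei of the PE-high libraries. At the 3% mitochondrial limit the ratio of the summed level was 0.161 in place of 0.320. The member UMIs of microglia were uneven, with up to 60 in a single unthinned nucleus of PE-low replicate 2 at a median of 0.

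Astrocyte-like nuclei had a summed level of 108, 207, 147 and 161 CPM. Near-empty barcodes, described below, gave 74.4, 232, 173 and 205 CPM in the same order. The astrocyte-like level was thus below that of free RNA in every library except PE-low replicate 1. The 2 chemokines summed to 0, 17.2, 12.4 and 13.8 CPM, against 0.371, 46.1, 31.5 and 40.0 CPM in near-empty barcodes. The part of free RNA was not tested. Only 5 members had at least 20 UMIs, and Gbp5 and Cxcl10 were at least 2-fold below the others (0.853% of all 11964 genes). Cxcl10 gave 0, 14, 10 and 9 UMIs, while Rnf213 was at 30.7, 33.4, 27.4 and 30.7 CPM, with PE-low replicate 1 inside the range of the others. At the study's limit of 3% mitochondrial UMIs, which left 47 to 217 astrocyte-like nuclei per library, the ratio of PE-low replicate 1 to the mean of the others was 0.177 in place of 0.632. The class also held clusters 22 and 34, 84 of its 3244 nuclei, in which most oligodendrocyte markers led as well, and without them the ratio was 0.638.

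In neuron-like nuclei the summed level was 52.9 CPM in PE-low replicate 1 (interval 49.2 to 56.7) and 73.4, 68.2 and 73.3 CPM in the others, a mean of 71.6 ± 3.02 CPM (SD, n = 3). Stat2 and Irf9 made up much of it and did not follow the pattern. Stat2 was at 24.9 CPM in PE-low replicate 1 and at 22.2 to 23.2 CPM in the others, and Irf9 was at 6.71 CPM within a range of 6.17 to 7.40 CPM. Of 24 members with at least 20 UMIs, 7 were at least 2-fold below the others (0.674% of all 17960 genes). They were Ifit1, Iigp1, Gbp2, Gbp5, Rsad2, Usp18 and Cxcl10, all at 5.67 CPM or less in neurons. Cxcl10 gave 0, 79, 52 and 58 UMIs in 4566 to 6619 neuron-like nuclei per library.

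Near-empty barcodes, which hold free RNA, were taken as the barcodes ranked 45000 to 90000 by UMIs. Their members summed to 74.4 CPM in PE-low replicate 1 and to 232, 173 and 205 CPM in the others. Cxcl10 gave 3, 285, 187 and 202 UMIs (0.371 CPM against 30.03 to 44.1 CPM, a pooled ratio of 101 with a counting interval of 34.6 to 493), so its level there was above that in neuron-like nuclei in every library (0, 5.67, 4.63 and 4.99 CPM). Of 30 members with at least 20 UMIs, 14 were at least 2-fold below the others (0.722% of all 15649 genes). Ly6a (20.4 against 13.7 to 20.2 CPM) and Bst2 (6.56 against 4.50 to 6.03 CPM) were highest in PE-low replicate 1. At ranks 90000 to 200000 the ratio of PE-low replicate 1 to the mean of the others was 0.233 in place of 0.366.

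Over all barcodes, with no calling or clustering, the members summed to 89.8 CPM in PE-low replicate 1 (interval 86.9 to 92.7), 474 CPM in PE-low replicate 2, 309 CPM in PE-high replicate 1 and 344 CPM in PE-high replicate 2. All 37 had at least 20 UMIs here, and 28 were at least 2-fold below the others (0.938% of all 20578 genes). Cxcl10 gave 4, 3612, 1691 and 1447 UMIs in whole libraries, and Cxcl9 gave 0, 217, 71 and 85. At this level, as in any bulk sum, fewer cells of a type and less RNA per cell cannot be told apart. The 9 members short of 2-fold were Gbp7, Stat2, Irf7, Irf9, Ifi27l2a, Bst2, Rnf213, Ifih1 and Ly6a. Stat2 (15.1 against 14.3 to 17.3 CPM), Ly6a (21.2 against 18.6 to 23.4 CPM) and Bst2 (3.98 against 3.69 to 6.08 CPM) lay within the range of the other libraries.

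Endothelial-like nuclei held 50.7%, 46.5% and 48.9% of all member UMIs of PE-low replicate 2, PE-high replicate 1 and PE-high replicate 2, uncalled barcodes included, and 21.0% of those of PE-low replicate 1. Of the member UMIs in called barcodes alone, endothelial-like nuclei held 68.0%, 66.0% and 72.2% in the 3 high libraries and 35.5% in PE-low replicate 1, where neuron-like nuclei held a further 35.4%. For Cxcl10 the endothelial-like share of UMIs in called barcodes was 74.3%, 74.3% and 80.7% in the 3 high libraries.

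The receptors and kinases upstream of the members showed little of the difference. The interferon receptors and their kinases (Ifnar1, Ifnar2, Ifngr1, Ifngr2, Jak1, Jak2, Tyk2), listed together with 4 interferon genes, summed to 496 CPM in endothelial-like nuclei of PE-low replicate 1 and to 645, 614 and 651 CPM in the others, a 1.28-fold difference. Ifnar1 was at 89.7 CPM against 87.7 to 105 CPM and Ifnar2 at 169 CPM against 149 to 184 CPM, within the range of the other libraries. None of the 6 listed genes with at least 20 UMIs was 2-fold below the others. Of the interferon genes, Ifnb1, Ifng, Ifna2 and Ifna4 gave 0 UMIs in endothelial-like nuclei, and over all barcodes Ifnb1 and Ifna4 gave 0, Ifng 2, 0, 0 and 1 and Ifna2 0, 1, 1 and 0 UMIs. That is below what this depth can compare.

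Negative regulators of the pathway summed to 294 CPM against 316 to 430 CPM (1.22-fold). Socs1, the induced inhibitor of the Jak kinases, was the exception among the 5 with at least 20 UMIs, with 0, 13, 8 and 6 UMIs. Among 5 genes of the upstream sensing list with at least 20 UMIs, 4 were at least 2-fold below the others, against 4.53% of all 7823 genes. The other 5 listed genes fell under this minimum, and nothing is read from these shares. The 4 included Ddx58 (RIG-I, a sensor of viral RNA) at 47.3 CPM against 223 to 352 CPM and Tlr3 at 12.5 CPM against 142 to 197 CPM. Tbk1, the kinase downstream of these sensors, was at 39.9 CPM against 101 to 125 CPM. Several of these sensors are themselves known to be induced by interferon.

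A list of 44 other interferon-stimulated genes gave 1423, 14433, 11248 and 11696 CPM in endothelial-like nuclei. Of its 35 genes with at least 20 UMIs, 33 were at least 2-fold below the others, against 4.53% of all 7823 genes. The other 9 genes fell under this minimum. This list too was chosen with earlier results of these data known, so nothing is read from these shares. Cd274, which encodes PD-L1, the ligand of the T cell checkpoint receptor PD-1, gave 1, 241, 102 and 125 UMIs. Ifitm3, a barrier to viral entry, was at 306 CPM against 1322 to 1912 CPM, and Nlrc5, the activator of MHC class I genes, gave 3, 88, 30 and 43 UMIs. In neuron-like nuclei the same list gave 131 CPM against 133 to 136 CPM.

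**Figure D4:**
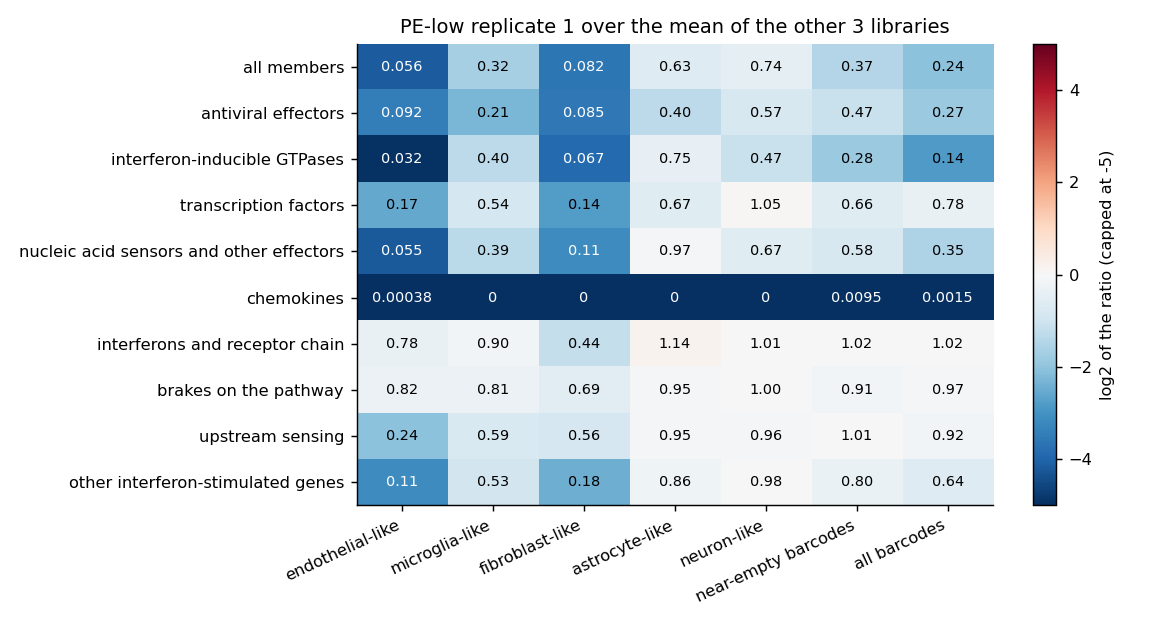
Ratio of PE-low replicate 1 to the mean of the other 3 libraries for the summed level of each list (rows) in each class and barcode set (columns); the numbers are ratios and the colour their log2, capped at its low end. Ratios of the member lists run from 0.00038 to 0.17 in endothelial-like nuclei, and those of the receptor chain and the negative regulators in that class are 0.78 and 0.82.

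PE-high was compared with PE-low by edgeR's quasi-likelihood test on UMIs summed per class and library, with Benjamini-Hochberg adjusted p under 0.1 as the call. PE-low replicate 1, on which the members were chosen, is 1 of the 4 libraries of this test, so the member counts are descriptions. With 4 libraries, 0 of 4597 genes in endothelial-like, 0 of 7565 in microglia-like, 0 of 577 in fibroblast-like, 0 of 10124 in astrocyte-like and 0 of 16458 in neuron-like nuclei were called (0% in each class). At an unadjusted p under 0.05 there were 63, 377, 16, 504 and 567 genes, and DESeq2 called 0, 0, 1, 0 and 2. None of the 35, 9, 6, 3 and 18 members tested was called in the 5 classes, and 1 of them, Parp14 in microglia-like nuclei, had an unadjusted p under 0.05.

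In endothelial-like nuclei the median log2 fold change of the 35 members was 0.61 (PE-high over PE-low), against 0.04 over all genes tested, with 34 positive and 1 negative. The standard errors were larger than the changes. Cxcl10 was at 3867 ± 5466 CPM in PE-low and 5407 ± 660 CPM in PE-high (SD, n = 2 each), a log2 fold change of 0.48 ± 2.88 (SE) with an adjusted p of 1.00. Gbp5 changed by 0.91 ± 2.06 and Ly6a, the member with the smallest error, by 0.38 ± 0.44, both with adjusted p of 1.00.

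The sign of these values rested on PE-low replicate 1. Without it, the median of 36 members was -0.36 against 0.02 over all genes, with 33 negative and 3 positive. In that fit 0 members were called, against 37 of 4217 genes (0.877%). In that comparison a lone PE-low library is assumed to vary like the PE-high libraries, so nothing is read from these counts. By edgeR, Cxcl10 then had a log2 fold change of -0.53 ± 0.24 (SE, adjusted p = 0.544) and Rsad2 -0.62 ± 0.26 (adjusted p = 0.465). Gbp5, Irgm2, Igtp, Usp18, Oasl2 and Oas1a were between -0.10 and 0.02, all smaller than their standard errors. Without PE-low replicate 2 instead, 33 of 34 members were called higher in PE-high, against 383 of 4376 genes (8.75%). That comparison sets PE-high against PE-low replicate 1 alone, the contrast on which the members were chosen, so nothing is read from its count.

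In microglia-like nuclei without PE-low replicate 1, 2 of 15 members were called, both lower in PE-high, against 160 of 8149 genes (1.96%). By edgeR, Cxcl10 had a log2 fold change of -1.77 ± 0.30 (SE) and Ifit1 -1.91 ± 0.59. The library left out was picked by its member values, and the lone PE-low library has no spread of its own. Nothing is read from this count or these values. Without PE-low replicate 2, 3 of 10 members were called, all higher in PE-high, against 73 of 8768 genes (0.833%), from which again nothing is read. The values of Cxcl10 and Ifit1 rest on 1 PE-low library, and Cxcl10 was found in 13 of its 367 thinned microglia-like nuclei. At the 5% mitochondrial limit, a microglia-like cluster with Mrc1, F13a1, Ccl12 and Ccl4 among its leading genes was uneven between libraries. It held 1 nucleus of PE-low replicate 1, 31 of PE-low replicate 2, and 6 and 10 of PE-high replicates 1 and 2. The main microglia-like class was a single cluster of 1823 nuclei, and the part of such nuclei was not tested.

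**Figure D5:**
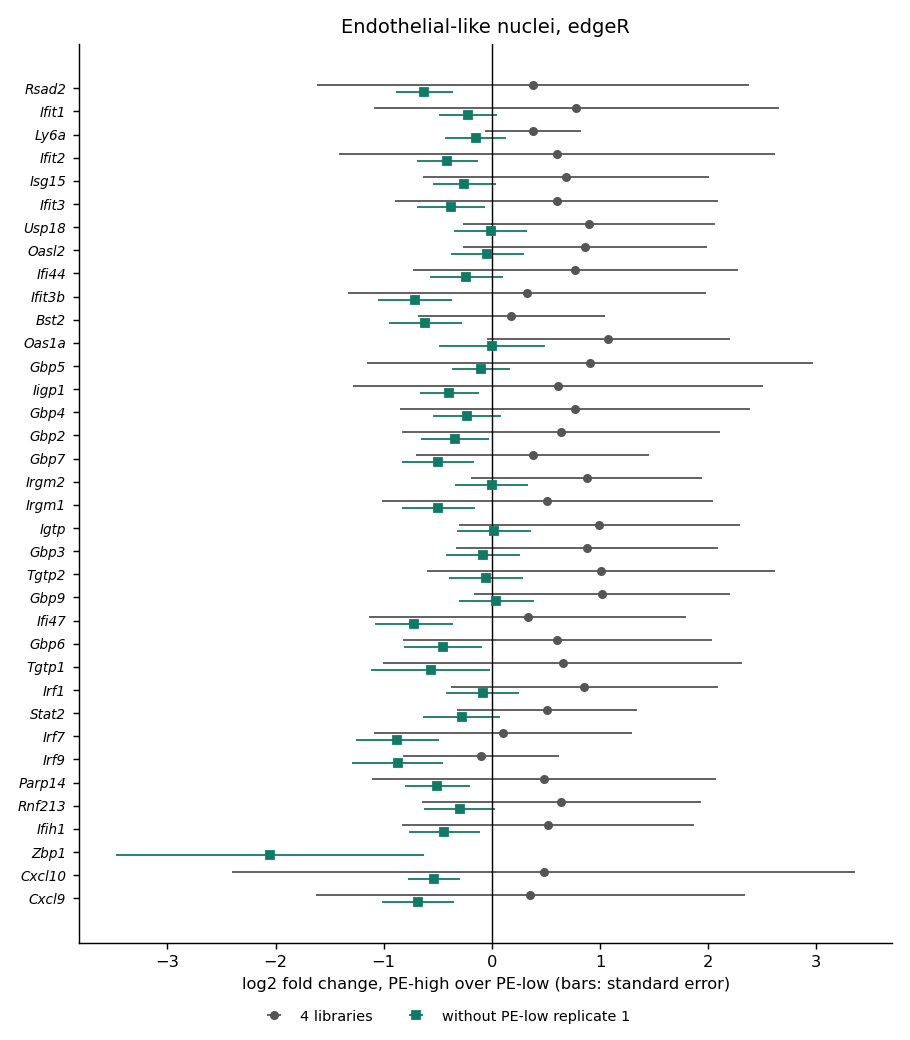
log2 fold change of PE-high over PE-low (x axis) for each tested member (y axis) in endothelial-like nuclei, with standard errors as bars, from 4 libraries (grey circles) and without PE-low replicate 1 (green squares). The circles have a median of 0.61 with bars that cross 0 for all 35 members, and the squares a median of -0.36 with much shorter bars.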

How the data were processed

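Single-nucleus RNA was measured in 4 libraries. Per the labels and the methods, the authors made 10x Genomics gene expression libraries from nuclei of brain that had been frozen in OCT and sectioned, aligned the reads with Cell Ranger 7.1.0 to mm10, and deposited raw UMI count matrices of every barcode. The counts were used as deposited. Whether intronic reads were counted is not given in the sources used here.

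Nuclei were called from the matrices by a knee at 10 times below the top barcodes and by a test against near-empty barcodes (500 UMIs or more, 10000 simulations, false discovery rate 0.01), and kept at 200 to 2500 genes and at most 15% mitochondrial UMIs. The knee lay at 573 and 839 UMIs in PE-low replicates 1 and 2, and at 405 and 422 UMIs in PE-high replicates 1 and 2. The test thus had 0 barcodes to act on in the PE-high libraries, whose nuclei were called down to lower depths than in PE-low. No doublet caller was run; the upper gene limit was the only step against doublets. Nuclei were clustered with scanpy 1.11.5 and leidenalg 0.10.2 (2000 variable genes without the listed interferon genes, 30 components, 20 neighbours, resolution 1). Clusters were named from marker lists, with cut-offs for naming that were fixed only once the clusters had been looked at. UMIs were summed per class and library and tested with edgeR 4.0.16 (TMM scaling, filterByExpr, quasi-likelihood, Benjamini-Hochberg over all tested genes) in R 4.3.3. DESeq2 1.42.0 was an alternative. The standard error is the fold change divided by the root of the F statistic. p-values measure only the spread between libraries. Depth was 29472021 to 43272337 UMIs per library, and Poisson and Wilson intervals cover counting error only. Each test was checked on simulated counts.

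The members and lists were chosen with earlier results of these data known. Every member is named, by role, and pathway genes are given as counts with values for those named. The study's filter of 3% mitochondrial UMIs was an alternative, since no endothelial-like cluster was found under it among the nuclei called here. The paper states this filter and does describe an endothelial cluster, in which it saw no significant change in genes of inflammatory signaling. The paper's own set of nuclei was not used here, so the source of this difference was not tested. Other alternatives were a 5% limit, no upper gene limit, interferon genes kept in the clustering, thinning to 500 UMIs, no filter on low counts, a replicate block, and leaving out each library.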

Additional observations from a re-analysis of the deposited data

How the results depend on the processing

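The ratio of PE-low replicate 1 to the mean of the other 3 libraries was below 1 under all 66 alternatives run (0.0418 to 0.779), and 56 of them lay within the spread of the other libraries. Among these 66, leaving out clusters with markers of another class was chosen after seeing the data (0.0494 in endothelial-like and 0.638 in astrocyte-like nuclei). Those outside it were, for endothelial-like nuclei, 0.0677 without Cxcl10 and 0.0418 at a 5% mitochondrial limit, and at a 3% limit 0.161 for microglia-like, 0.177 for astrocyte-like and 0.620 for neuron-like nuclei. In neuron-like nuclei the ratio was also 0.570 without Stat2, 0.631 as the median of the members' own ratios and 0.779 after thinning, and in near-empty barcodes 0.446 without Cxcl10 and 0.233 at ranks 90000 to 200000. The cause was not tested. Under every alternative that kept 4 libraries and had members to test, 0 members were called in PE-high against PE-low (46 counts). Genes called moved from 0 with no filter on low counts to 1 in endothelial-like, 11 in microglia-like, 2 in fibroblast-like and 11 in astrocyte-like nuclei, to 2 in microglia-like nuclei after thinning, and with DESeq2 to 1 in fibroblast-like and 2 in neuron-like nuclei. A replicate block gave 12 genes in astrocyte-like and 20 in neuron-like nuclei and 0 in the other classes. Same-numbered libraries share only a number, with correlations of their deviations between -0.057 and 0.172 over 2 pairs. Leaving out 1 library gave 0 to 383 genes and 0 to 33 members in endothelial-like, 1 to 160 genes and 0 to 3 members in microglia-like, 0 to 12 genes in fibroblast-like, 0 to 286 genes in astrocyte-like, and 0 to 689 genes and 0 to 2 members in neuron-like nuclei, with the larger gene counts when PE-low replicate 1 or 2 was left out. At a 3% mitochondrial limit no endothelial-like or fibroblast-like cluster was found among the nuclei called here. No member was tested in microglia-like nuclei at 3%, nor in fibroblast-like nuclei at 5%. Few nuclei limit the fibroblast-like class, where 10 members reached 20 UMIs.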

Other observations

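Genes outside the 37 were also lowest in PE-low replicate 1 in endothelial-like nuclei. Among the 50 genes that lay farthest below the other 3 libraries in PE-low replicate 1, 22 were members, 7 came from the pathway lists and 21 from neither. The genes named here were chosen from those 21 after their values were seen, so they are examples. UMIs are given for PE-low replicate 1, PE-low replicate 2, PE-high replicate 1 and PE-high replicate 2. Casp4, the inflammatory caspase that senses bacterial lipopolysaccharide, gave 0, 97, 42 and 40. Ptgs2, the inducible cyclooxygenase, gave 1, 31, 34 and 19, and Lcn2, an acute-phase protein that binds bacterial siderophores, gave 1, 59, 26 and 18. The stress factor Atf3 gave 1, 61, 25 and 25. Pml, the organiser of nuclear bodies and a known interferon target, gave 5, 76, 42 and 44.

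Icam1 and Vcam1, through which leukocytes attach to the vessel wall, were picked in the same way, and other adhesion molecules were not examined. Icam1 gave 9, 183, 119 and 100 UMIs, and Vcam1 gave 24, 200, 178 and 139. Tnfaip3, a feedback inhibitor induced by NF-kappa B, gave 3, 32, 17 and 16. No test was run on these genes, because PE-low replicate 1 is a single library and the contrast was chosen with its values known.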
